A study of Homo sapiens with 8 samples.

Results

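This account follows 10 genes of mast cells, basophils and eosinophils through KCL-22 cells that had become resistant to inhibitors of BCR-ABL. The genes are HDC, CPA3, FCER1G, FCER1A, MS4A2, CLC, PRG2, TPSAB1, TPSB2 and RNASE2. They were taken by gene symbol from a table of 31402 entries, and each symbol had 1 entry. HDC, the histamine-synthesizing enzyme, was among the most abundant transcripts of every library and was lower in the clones than in the resistant populations. FCER1G was highest in Clone 2, and the tryptase genes TPSAB1 and TPSB2 were highest in Clone 4. FCER1A and MS4A2, which encode the other chains of the high-affinity IgE receptor, were listed at 0 in all 8 libraries.

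KCL-22 is a human cell line of chronic myeloid leukemia in blast crisis, driven by the fusion kinase BCR-ABL. Before treatment it was transduced with ClonTracer, a lentiviral barcode library that tags the descendants of each cell, and all 8 libraries share that tagging. The catalytic-inhibitor resistant group had 3 libraries. They were a population grown for 27 days in 2.5 µM imatinib, a population grown for 27 days in 0.3 µM nilotinib, and Clone 3, which was isolated from the imatinib-resistant cells, never met an allosteric inhibitor and is resistant to both drugs. The GNF-2 resistant group also had 3 libraries, a population grown for 21 days in 2.5 µM GNF-2, Clone 1 and Clone 2. Clone 4 alone was resistant to all 3 compounds. Clones 1, 2 and 4 were sorted from GNF-2 resistant cells and never met a catalytic inhibitor. The vehicle library came from a population kept for 7 days in 0.1% DMSO. Imatinib and nilotinib occupy the catalytic site of ABL, whereas GNF-2 acts allosterically, away from that site.

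Each condition has 1 library, each clone descends from 1 sorted cell, and nothing in the labels names replicate cultures of a condition. The libraries of a group differ in drug, in being a population or a clone, or in the clone. A p-value below thus reflects the spread of these samples alone, in which such differences and technical spread cannot be told apart. Levels are given as FPKM, a fragment count divided by transcript length and by library depth. An FPKM of 1 on a transcript of 2000 bases stood for roughly 39.8 fragments in the shallowest library (GNF-2 population) and 78.7 in the deepest (Clone 1). ABL1 (65.3 to 110.5 FPKM), BCR (58.8 to 106) and PTPRC, the leukocyte antigen CD45 (16.5 to 88.0), were present in every library, and CD33 and CD34 were lower (at most 3.35 and 12.2).

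Mast cells and basophils carry histamine, proteases and proteoglycan in granules and release them when antigen crosslinks IgE on their surface. The high-affinity IgE receptor joins an IgE-binding alpha chain (FCER1A), a signal-amplifying beta chain (MS4A2) and paired gamma chains (FCER1G), whose phosphorylated motifs recruit SYK after LYN has acted on them. Mast cell granules hold tryptases and carboxypeptidase A3 (CPA3), and eosinophil granules hold major basic protein (PRG2) and eosinophil-derived neurotoxin (RNASE2). Basophils and eosinophils also contain the galectin of Charcot-Leyden crystals (CLC). GATA factors and members of the C/EBP family direct these lineages, and basophilia is a known feature of chronic myeloid leukemia.

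GATA factors read the motif GATAA, and GATA2, the family member of mast cell and basophil precursors, had 145 to 287 FPKM here. The 250 bases before the start site were therefore read from RefSeq (GRCh38.p14) for the 7 of the 10 genes that matched its promoter table. GATAA or its reverse complement TTATC, the only motif searched and counted on both strands, was found in 5 of the 7, and 20.4% of all 35116 promoters in the table held it. The windows below show each match in capitals, 5′ to 3′ on the strand of the gene. The match begins 164 bases before the start site in HDC, 172 and 44 in CPA3, 122 in FCER1A, 54 in MS4A2 and 206 in CLC. The FCER1G and RNASE2 windows do not hold these letters.
HDC, chr15:50265856-50265920, minus strand: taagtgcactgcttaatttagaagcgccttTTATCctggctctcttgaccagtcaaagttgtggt
CPA3, chr3:148865094-148865286, plus strand: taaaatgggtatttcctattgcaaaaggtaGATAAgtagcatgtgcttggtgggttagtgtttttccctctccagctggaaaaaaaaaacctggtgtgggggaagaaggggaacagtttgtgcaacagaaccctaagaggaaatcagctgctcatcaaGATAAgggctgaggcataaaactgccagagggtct
FCER1A, chr1:159302184-159302248, plus strand: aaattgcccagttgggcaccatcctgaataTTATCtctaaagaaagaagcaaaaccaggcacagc
MS4A2, chr11:60088580-60088644, plus strand: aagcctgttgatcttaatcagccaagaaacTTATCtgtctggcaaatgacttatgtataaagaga
CLC, chr19:39738201-39738265, minus strand: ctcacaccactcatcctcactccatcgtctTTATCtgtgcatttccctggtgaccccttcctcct

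Genes with a match spanned the whole range of levels. HDC had at least 136 FPKM, CPA3 and CLC stayed under 1 in every library, and FCER1A and MS4A2 were listed at 0. FCER1G, without a match, ranged from 0.554 to 323 FPKM.

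The tryptase genes were compared in sequence because their reads are hard to assign. The coding sequences of TPSAB1 and TPSB2 in GENCODE release 29 are 828 bases each and identical at 824 of them (99.5%), with 1 identical run of 670 bases. The 120 coding bases from 39 to 158 are shown because they hold all 4 differences, in capitals.
TPSAB1: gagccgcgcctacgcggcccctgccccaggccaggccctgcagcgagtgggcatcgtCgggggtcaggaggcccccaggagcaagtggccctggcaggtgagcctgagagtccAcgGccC
TPSB2: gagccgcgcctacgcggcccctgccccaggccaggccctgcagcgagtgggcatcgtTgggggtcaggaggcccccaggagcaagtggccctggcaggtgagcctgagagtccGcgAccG

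Of the 10 genes, 5 had a mean of at least 1 FPKM over the 8 libraries and entered the tests: HDC, FCER1G, TPSAB1, TPSB2 and PRG2. HDC, FCER1G, TPSAB1 and TPSB2 were above 0 in every library. CPA3, CLC, RNASE2, FCER1A and MS4A2 did not reach that mean and were not tested. TPSB2 reached it only through Clone 4, and PRG2 only through the imatinib and vehicle populations, so a count that includes them in a comparison with those libraries is a description. The levels of the 5 tested genes by library set HDC, high throughout, apart from FCER1G and the tryptases, whose highest values each lie in 1 clone.

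**Figure D1:**
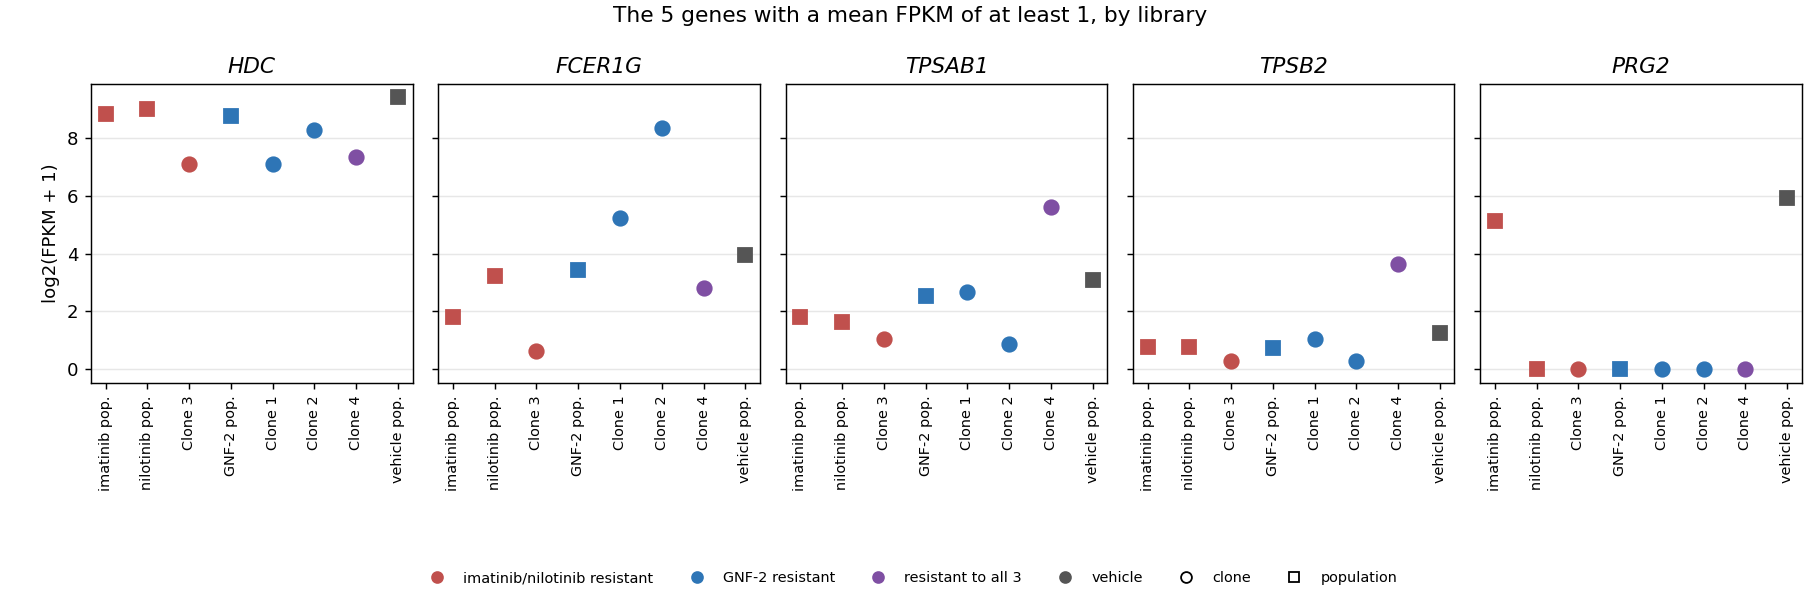
Each point is 1 library, with log2(FPKM + 1) on the vertical axis and the libraries of each resistance group side by side on the horizontal one; colours give the resistance group, circles are clones and squares are populations. HDC lies between 136 and 684 FPKM, FCER1G reaches 323 in Clone 2, TPSAB1 reaches 48.1 in Clone 4, and PRG2 is above 0 only in the imatinib and vehicle populations.

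HDC (Entrez 3067; chromosome 15, 50534146 to 50558162, GRCh37) encodes histidine decarboxylase, which makes histamine from histidine. Under imatinib the population had 455 FPKM and under nilotinib 519, and Clone 3 had 136. It was 435 in the GNF-2 population, 136 in Clone 1, 314 in Clone 2 and 162 in Clone 4, against 684 in the vehicle population. All 7 resistant libraries lay below vehicle, and the 4 clones lay below the 3 resistant populations without overlap. The share of all tested genes with all 7 below vehicle was not computed. For all 3 GNF-2 resistant libraries below vehicle the share was 26.2%, and for all 3 catalytic-inhibitor resistant ones it was 21.2%. In bulk RNA, fewer cells that express a gene and less of its RNA per cell cannot be told apart. Ranked by FPKM among 18960 protein-coding entries, HDC stood at place 94 in the vehicle population and between 117 and 136 in the resistant populations. In the clones it stood at 184 (Clone 2) to 541 (Clone 1). The highest level was 5.05 times the lowest, the narrowest range of the 4 genes above 0 in every library.

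The clones were set against the resistant populations because both groups with replicates, catalytic-inhibitor and GNF-2 resistant, mix the 2 kinds of sample. HDC averaged 187 ± 85.5 FPKM in the clones (SD, n = 4) and 469.8 ± 44.0 in the resistant populations (SD, n = 3). The log2 difference was -1.42 (SE 0.29, 95% interval -2.10 to -0.73, adjusted p = 0.0343, limma with Benjamini-Hochberg adjustment over 11843 genes). HDC was the 1 gene of the 5 tested that fell in the clones, and 5.78% of all tested genes fell in this comparison. The groups also failed to overlap, with the clones lower, for 18.1% of tested genes. An exact permutation test of HDC alone gave p = 0.0571 (two-sided), the smallest that 35 splits allow. The call rested on most of the libraries: without any 1 of the 7 resistant libraries except Clone 2, HDC missed the threshold, at log2 differences of -1.47 to -1.29 and adjusted p from 0.0585 to 0.135. With resistance group as a covariate the difference was -1.45 and the adjusted p 0.112. With the population each clone came from as a block, an alternative chosen after seeing the data, it was -1.41 (SE 0.39) and missed the threshold (adjusted p = 0.203), and 13 genes passed in that fit, against 883 without the block.

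FCER1G averaged 91.7 ± 155 FPKM in the clones and 6.87 ± 3.88 in the resistant populations (log2 difference 1.44, SE 1.62), with overlapping groups. Leaving out 1 library at a time moved this difference between 0.08, without Clone 2, and 2.65, without Clone 3. TPSAB1 (0.55, SE 1.08) and TPSB2 (0.56, SE 0.78) overlapped too, and the sign of TPSAB1 turned without Clone 4 (-0.47), where TPSB2 no longer reached a mean of 1 FPKM. With resistance group as a covariate, which sets Clone 4 apart, TPSAB1 was at -0.73 and TPSB2 at -0.27. With the population of origin as a block TPSAB1 was at -0.0094 (SE 1.33).

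**Figure D2:**
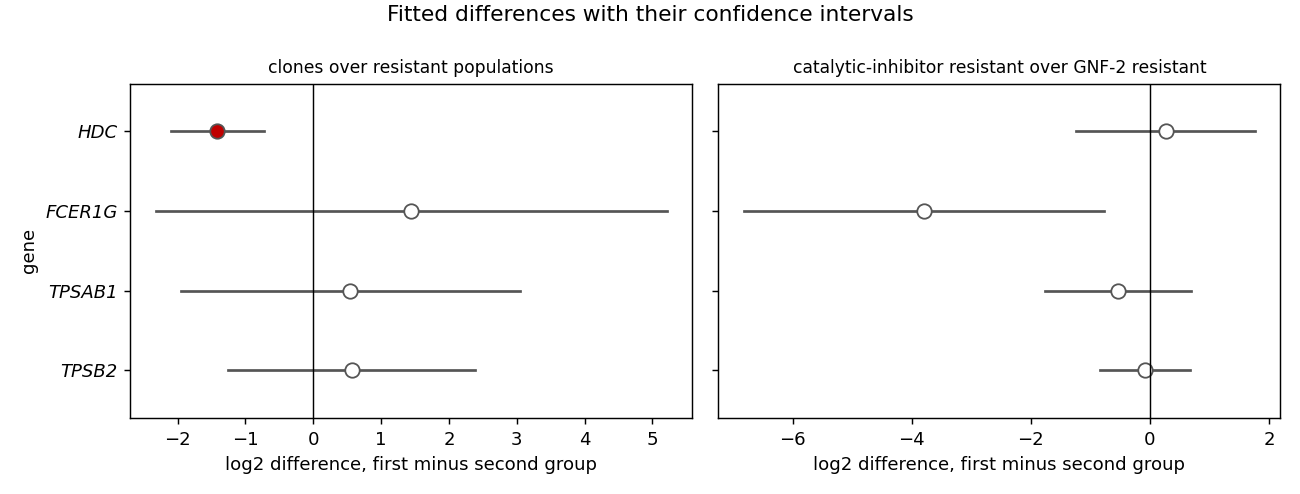
Points give the fitted log2 difference, first minus second group, and bars its 95% interval from limma, for the 4 genes above 0 in every library; a filled point has an adjusted p under 0.05. In the left panel (clones over resistant populations) HDC is at -1.42 and filled, and in the right panel (catalytic-inhibitor resistant over GNF-2 resistant) FCER1G is at -3.79 with an interval from -6.82 to -0.77.

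Against the population it came from, each clone had less HDC. Clone 3 had 136 FPKM and the imatinib population 455 (log2 difference -1.73). Against 435 in the GNF-2 population, Clone 1 had 136 (-1.67), Clone 4 had 162 (-1.42) and Clone 2 had 314 (-0.47). Clone 2 stayed under the 2-fold rule used for single libraries, which counts a gene at least 2-fold apart on the log2(FPKM + 1) scale with 5 FPKM or more in the higher library and has no test. Clone 2 was thus the clone nearest its origin in HDC.

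Of the genes that handle histamine after its synthesis, HNMT, the methyltransferase that inactivates it, was also lower in each clone than in each resistant population. HNMT was 4.32, 0.167, 3.51 and 1.92 FPKM in Clones 3, 1, 2 and 4, against 8.90, 9.54 and 7.30 in the imatinib, nilotinib and GNF-2 populations. The vehicle population, at 5.92, lay below the 3 resistant populations, and Clone 3 was the highest clone, neither of which held for HDC. Clones and resistant populations did not overlap, but the log2 difference of -1.66 (SE 0.49) missed the threshold (limma adjusted p = 0.0798). SLC18A2, the vesicular monoamine transporter that loads histamine into granules, lay between 2.10 FPKM (vehicle population) and 4.02 (Clone 4). SLC27A2, the neighbour 5556 bases from HDC, had 37.0, 40.3, 18.9 and 19.6 FPKM in Clones 3, 1, 2 and 4, against 58.3, 48.1 and 52.5 in the imatinib, nilotinib and GNF-2 populations. The clones thus lay below the resistant populations for SLC27A2 too. That position, shared with HNMT and HDC, held for 18.1% of all tested genes. GABPB1, 11226 bases away, had 17.7, 20.7 and 17.6 in Clones 3, 2 and 4, with no value in Clone 1, against 29.7, 21.0 and 22.2 in those populations.

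A neutrophil marker and the leukocyte antigen PTPRC fell in the same comparison. PRTN3, the neutrophil proteinase, averaged 0.545 FPKM in clones and 3.24 in resistant populations (log2 difference -1.45, limma adjusted p = 0.0249), and PTPRC averaged 25.9 in clones and 61.2 in resistant populations (-1.27, adjusted p = 0.0307). PRTN3 was the 1 called gene of 3 tested among 11 neutrophil granule markers, and 5.78% of all tested genes fell in this comparison. The sum of the 11 markers was 2.89 to 34.7 FPKM in the clones and 20.8 to 54.7 in the resistant populations. MS4A3 and CEACAM8 of that list were listed at 0 throughout. Of 3 monocyte markers tested, 0 were called by limma, and 1 had an unadjusted p under 0.05, beside 3206 of all 11843 tested genes. Over the alternative settings PRTN3 was called in 9 of 17 (adjusted p up to 0.119) and PTPRC in 11 of 18 (up to 0.212), and neither was called with the population of origin as a block. The part of these cell markers in the HDC difference was not tested.

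FCER1G (Entrez 2207; chromosome 1, 161185087 to 161189038) encodes the gamma chain that the IgE receptor shares with other Fc and immune receptors. Under imatinib the population had 2.48 FPKM and under nilotinib 8.28, and Clone 3 had 0.554. It was 9.85 in the GNF-2 population, 37.1 in Clone 1, 323 in Clone 2 and 6.05 in Clone 4, against 14.5 in the vehicle population. Clone 2 had 8.72 times the next highest level, that of Clone 1, and 583 times the lowest, that of Clone 3. In Clone 2 it ranked 178 among protein-coding entries, close to HDC at 184, and in Clone 3 it ranked 10946.

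The study's main question sets cells resistant to catalytic inhibitors against cells resistant to the allosteric one. FCER1G averaged 3.77 ± 4.02 FPKM in the catalytic-inhibitor resistant libraries and 123 ± 174 in the GNF-2 resistant ones (SD, n = 3 each). All 3 catalytic-inhibitor resistant libraries lay below all 3 GNF-2 resistant ones, which held for 6.82% of tested genes. The log2 difference of -3.79 (SE 1.26) had an unadjusted limma p of 0.0214 and an adjusted p of 0.846. An exact permutation test gave p = 0.1 (two-sided), the smallest that 20 splits allow. None of the 5 tested genes passed, where 0.0338% of all tested genes (4 of 11843) did. At an unadjusted p under 0.05 the numbers were 1 of the 5, FCER1G, and 4.87% of all tested genes.

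HDC and the tryptase genes had smaller fitted differences between the inhibitor classes. HDC averaged 370.2 FPKM in catalytic-inhibitor resistant libraries and 295 in GNF-2 resistant ones (log2 difference 0.27, SE 0.63, interval -1.23 to 1.76), with overlapping groups. Its sign turned when the nilotinib population (-0.09) or Clone 1 (-0.21) was left out and when clone or population was a covariate (-0.22). TPSAB1 averaged 1.90 and 3.68 FPKM in the same order (-0.53, SE 0.51; between -1.11, without Clone 2, and -0.22, without Clone 1) and TPSB2 0.531 and 0.641 (-0.08, SE 0.32). TPSB2 turned to 0.08 without Clone 3 and 0.10 without Clone 1.

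Between single libraries, FCER1G was higher in Clone 2 than in the GNF-2 population it came from (log2 difference 4.90, a ratio of 32.8). It was the 1 gene of the 5 called in that pair, where 9.75% of all tested genes passed the 2-fold rule and 3.27% were higher. Clone 1 also exceeded the GNF-2 population in FCER1G (1.81) and had less HDC, the 2 genes called of 5 against 8.38% overall. In Clone 4 FCER1G was under 2-fold from the GNF-2 population (-0.62). The imatinib population had 2 genes lower than vehicle, FCER1G (-2.16) and TPSAB1 (-1.28), with 2.41% of tested genes called in that pair and 1.69% lower.

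**Figure D3:**
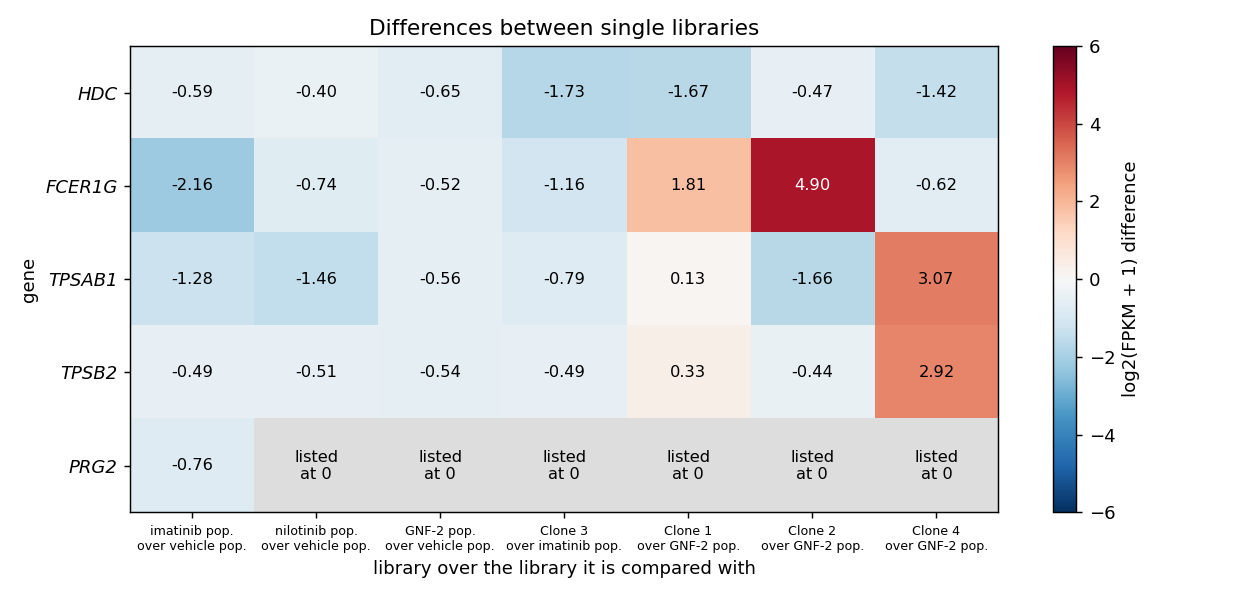
Cells give the log2(FPKM + 1) difference between 2 libraries for each gene, the library named first minus the one below it, with red for higher and blue for lower; grey cells have PRG2 listed at 0 in 1 or both libraries. FCER1G in Clone 2 over the GNF-2 population (4.90) and TPSAB1 (3.07) and TPSB2 (2.92) in Clone 4 over it are the highest values, and HDC is negative in all 7 columns.

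TOMM40L, a gene 6794 bases past FCER1G, had 28.7 FPKM in Clone 2 and 11.2 to 29.9 across libraries, so Clone 2 did not stand apart there.

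The gamma chain needs partner chains. FCER1A (Entrez 2205; chromosome 1, 159259506 to 159278014) and MS4A2 (Entrez 2206; chromosome 11, 59856137 to 59865940) were listed at 0 in all 8 libraries, Clone 2 included. A list of 11 other receptors that signal through the gamma chain was added after the values were seen. In it 3 genes reached the mean of 1 FPKM: OSCAR, the osteoclast-associated receptor (7.58 to 51.4 FPKM, 7.61 in Clone 2), FCGR1A, the high-affinity IgG receptor (0.349 in Clone 2 and 13.0 to 32.3 elsewhere), and GP6, the platelet collagen receptor (30.1 in Clone 2 and 2.60 to 15.3 elsewhere). None passed the limma test in any of the 4 comparisons. Megakaryocyte and platelet markers were also highest in Clone 2. Their sum over 8 genes, GP6 among them, was 156 FPKM there and 23.4 to 71.3 elsewhere, 119 of it from GP9, with PPBP listed at 0 throughout and PF4 listed at 0 in Clone 2. The part of these markers in the FCER1G level was not tested.

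Below the receptor, the first kinases were unequal. LYN, the SRC-family kinase that phosphorylates the gamma and beta chains, had 215 FPKM in Clone 2 and 55.0 to 81.5 in the other libraries. SYK, which docks on the phosphorylated gamma chain, reached at most 0.0669. LAT, the membrane scaffold, had 23.0 FPKM in Clone 2, 15.0 in the vehicle population and at most 5.93 elsewhere. LYN and LAT were thus highest in the same clone as FCER1G, while SYK was close to 0 everywhere. The IgE receptor signalling genes examined did not move together in Clone 2. PIK3R1 (13.1 FPKM) was also highest there, whereas VAV1 (13.8), GRAP2 (0.805) and DOK1 (11.1) were lowest there.

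Of 24 IgE receptor signalling genes, 21 were tested. In clones over resistant populations 2 rose and 4 fell, and the list's median log2 difference was -0.19, beside -0.08 over all tested genes. In that comparison 1.68% of tested genes rose and 5.78% fell, 7.46% in all. BTK, a TEC-family kinase, fell to 13.0, 19.5, 10.9 and 7.37 FPKM in Clones 3, 1, 2 and 4, against 29.7, 34.7 and 34.0 in the imatinib, nilotinib and GNF-2 populations (log2 difference -1.37, limma adjusted p = 0.0318). Both phospholipase C gamma genes, which generate inositol trisphosphate, fell: PLCG1 averaged 9.12 in clones and 17.7 in populations (-0.92, adjusted p = 0.042) and PLCG2 11.7 in clones and 17.6 in populations (-0.54, adjusted p = 0.0498). INPP5D, the inositol phosphatase SHIP1 that restrains the pathway, averaged 30.3 in clones and 52.9 in populations (-0.82, adjusted p = 0.0452).

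The 2 signalling genes that rose were ORAI1 and ITPR2. ORAI1, the pore of the store-operated calcium channel, had 115, 105, 117 and 132 FPKM in Clones 3, 1, 2 and 4, against 65.9, 81.3 and 61.7 in the imatinib, nilotinib and GNF-2 populations (log2 difference 0.75, limma adjusted p = 0.0231). ITPR2, an inositol trisphosphate receptor of the calcium store, averaged 11.0 in clones and 5.39 in populations (0.88, adjusted p = 0.0498). Members of the list that did not pass included LCP2 (46.3 in clones and 72.0 in populations) and LAT2 (167 and 116 in the same order). These 6 calls were close to the threshold: leaving out 1 library at a time kept between 0 and 4 of them, with 0 when the imatinib, the nilotinib or the GNF-2 population was left out. None of the 6 passed with the population of origin as a block (adjusted p from 0.107 to 0.225). Between the inhibitor classes and against vehicle no gene of the list passed. The largest class difference was that of PTPN6, the phosphatase SHP-1, with 31.7 FPKM on average in catalytic-inhibitor resistant libraries and 72.9 in GNF-2 resistant ones (adjusted p = 0.846).

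TPSAB1 (Entrez 7177; chromosome 16, 1290678 to 1292555) and TPSB2 (Entrez 64499; chromosome 16, 1277272 to 1280185) encode the main secreted tryptases of mast cells. TPSAB1 had 2.54 FPKM in the population under imatinib, 2.11 in that under nilotinib and 1.04 in Clone 3. It was 4.83 in the GNF-2 population, 5.36 in Clone 1, 0.841 in Clone 2 and 48.1 in Clone 4, against 7.58 in the vehicle population. TPSB2 had 0.702 FPKM in the population under imatinib, 0.683 in that under nilotinib and 0.208 in Clone 3. It was 0.642 in the GNF-2 population, 1.07 in Clone 1, 0.211 in Clone 2 and 11.5 in Clone 4, against 1.39 in the vehicle population.

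Clone 4, the library resistant to all 3 compounds, held the highest level of both. It had 6.35 times the TPSAB1 and 8.23 times the TPSB2 of the vehicle population, which came next for each. Clones 2 and 3 were the lowest. Over the GNF-2 population, Clone 4 was 3.07 higher in TPSAB1 and 2.92 higher in TPSB2 on the log2(FPKM + 1) scale, and lower in HDC. TPSB2 entered the tests only through this clone and may share reads with TPSAB1, so it is left out of the counts: 2 of the other 4 tested genes were called, beside 9.44% of all tested genes. Over Clone 1, its sister clone, TPSAB1 and TPSB2 were higher (2.95 and 2.59) and FCER1G was lower (-2.43), again 2 of 4 without TPSB2, beside 6.81%. Over Clone 2 the differences were 4.74, 3.36 and -5.52 for the same genes, 2 of 4 without TPSB2, beside 9.58%. With 1 library of this kind there is no test of these differences.

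Reads of these near-identical copies may have been split between them by the authors' quantification, so the sum is the safer value. It was 59.5 FPKM in Clone 4, 1.05 (Clone 2) to 6.43 (Clone 1) in the other resistant libraries and 8.97 in the vehicle population. The ratio of TPSAB1 to TPSB2 stayed between 3.09 (nilotinib population) and 7.53 (GNF-2 population), and was 4.20 in Clone 4. Of the other genes of the tryptase cluster, TPSG1 was listed at 0 throughout, and TPSD1 had 0.364 FPKM in Clone 4, where it was highest, and at most 0.0917 elsewhere. CACNA1H, the calcium channel gene beside the cluster, was also highest in Clone 4 (1.24 FPKM, and at most 0.680 elsewhere).

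**Figure D4:**
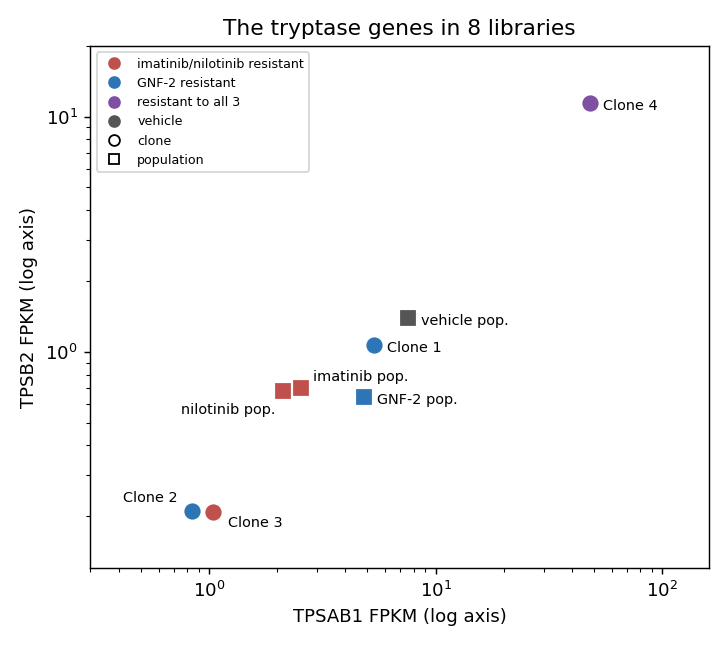
TPSAB1 is on the horizontal axis and TPSB2 on the vertical one, both in FPKM on log axes, with 1 point per library (colours give the resistance group, circles are clones and squares are populations). Clone 4 stands at 48.1 and 11.5, and Clones 2 and 3 are lowest, at 0.841 and 0.211 and at 1.04 and 0.208.

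Other granule proteases examined are given beside the tryptases. CTSG, listed here with the granule genes and with the neutrophil markers, had 0.0480 FPKM (Clone 2) to 41.4 (GNF-2 population), with 32.1 in Clone 4. CPA3 (Entrez 1359; chromosome 3, 148583043 to 148614872), the carboxypeptidase stored with tryptase, was highest in Clone 4 but reached only 0.412 FPKM there. It was 0.0568 in the GNF-2 population, 0.0298 in Clone 1, 0.0697 in Clone 2 and 0.156 in the vehicle population, and listed at 0 in the 3 catalytic-inhibitor resistant libraries. CMA1, the mast cell chymase, was listed at 0 in all libraries. KIT, the stem cell factor receptor that mast cells keep, was listed at 0 in 7 libraries and 0.00524 in the nilotinib population, and MITF, which drives mast cell genes, had 0.322 in Clone 4 and at most 1.35 (Clone 1). GATA2 was highest in Clone 4, at 287 FPKM.

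PRG2 (Entrez 5553; chromosome 11, 57154834 to 57191532) encodes the precursor of eosinophil major basic protein. It had 34.5 FPKM in the imatinib population and 59.3 in the vehicle population and was listed at 0 in the other 6 libraries. Between the pair with a value the log2 difference was -0.76, imatinib over vehicle. Where the nilotinib population is set against vehicle, the 2-fold rule counts PRG2 and TPSAB1 (-1.46) as lower, 2 of 5 beside 3.68% of tested genes, and in the GNF-2 population against vehicle it counts PRG2 alone, 1 of 5 beside 5.79%. In Clone 3 over the imatinib population it counts PRG2 and HDC as lower, 2 of 5 beside 8.82%. PRG2 entered the tests only through the imatinib and vehicle populations, against which these pairs are set. Counts that include it are thus descriptions and are not comparable with the shares of all tested genes. No fold is given against a value listed at 0.

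The zeros of PRG2 need care. ANAPC10, a subunit of the anaphase-promoting complex that dividing cells use, was listed at 0 in the same 6 libraries and had 21.6 FPKM in the imatinib population and 20.7 in the vehicle population. PRG2 and ANAPC10 belong to 7 tested genes at 0 in exactly those libraries, and 401 of 11843 tested genes were at 0 in at least 1 library. The deposited PRG2 entry spans 36699 bases, whereas GENCODE release 29, on GRCh38, gives PRG2 3864 bases and gives 36695 to AP000781.2, a gene that runs through PRG2 into SLC43A3. The entry overlaps that of SLC43A3, a solute carrier gene, by 17106 bases. SLC43A3 had 104 to 196 FPKM in all libraries. Whether reads of this overlapping neighbour enter the PRG2 values cannot be told from FPKM and was not tested.

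**Figure D5:**
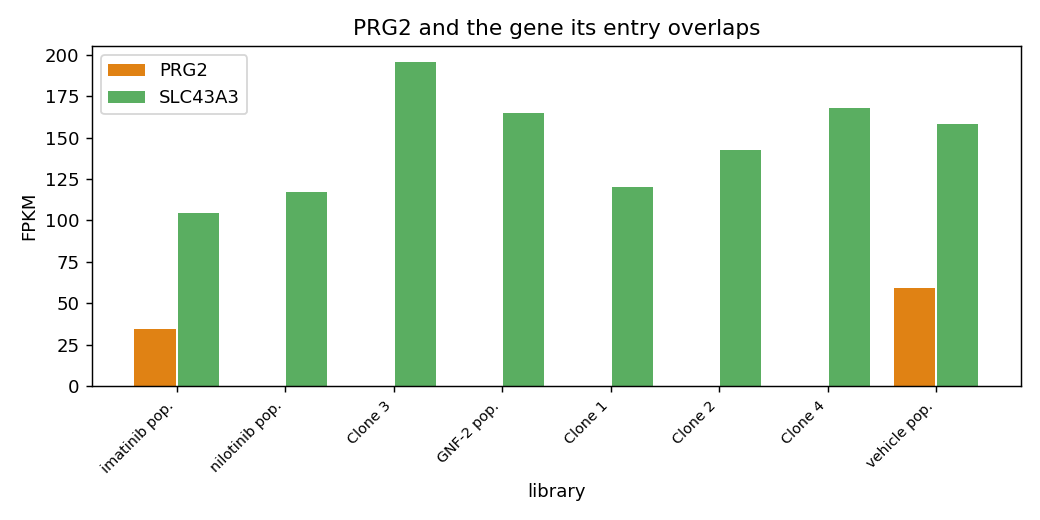
Bars give FPKM of PRG2 (orange) and of SLC43A3 (green), the gene its entry overlaps, in each library. PRG2 is 34.5 in the imatinib population and 59.3 in the vehicle population and listed at 0 in the other 6, while SLC43A3 is between 104 and 196 in all 8.

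The remaining eosinophil and basophil genes were at the edge of detection. CLC (Entrez 1178; chromosome 19, 40221893 to 40228669) had 0.0888 FPKM in the imatinib population, 0.155 in the GNF-2 population and 0.0505 in the vehicle population, and was listed at 0 in the nilotinib population and all 4 clones. RNASE2 (Entrez 6036; chromosome 14, 21387500 to 21424594) had 0.0418 in the imatinib population and 0.0714 in the GNF-2 population and was listed at 0 in the other 6 libraries. Its entry spans 37095 bases, against 985 in GENCODE, and overlaps ECRP, itself listed at 0. PRG3, RNASE3 and EPX, the other eosinophil granule genes examined, had at most 0.43 FPKM, and IL5RA, the eosinophil cytokine receptor, at most 0.0064.

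Against vehicle none of the 5 tested genes passed limma in either resistant group, and both comparisons rest on the same 1 vehicle library. In GNF-2 resistant over vehicle 0.0929% of all tested genes (11) passed, and in catalytic-inhibitor resistant over vehicle 0.0338% (4) did. At an unadjusted p under 0.05 there was 1 of the 5 in GNF-2 resistant over vehicle (PRG2) beside 11.1%, and 0 in catalytic-inhibitor resistant over vehicle beside 2.69%. HDC averaged 295 FPKM in the GNF-2 resistant libraries and 684 in vehicle (log2 difference -1.37, SE 0.88), and 370.2 in the catalytic-inhibitor resistant libraries (-1.10, SE 0.88). TPSAB1 averaged 3.68 in GNF-2 resistant libraries (-1.07, SE 0.73) and 1.90 in catalytic-inhibitor resistant libraries (-1.60, SE 0.73), against 7.58 in vehicle. All 3 libraries lay below vehicle for 4 of the 5 genes in the GNF-2 resistant group, beside 26.2% of tested genes. They did so for all 5 in the catalytic-inhibitor resistant group, beside 21.2%. PRG2 is in both counts and is the gene at an unadjusted p under 0.05. It entered the tests only through the imatinib and vehicle populations, and TPSAB1 and TPSB2 may share reads, so these counts are descriptions.

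Other granule and lipid mediator genes were measured alongside. Of 24, 12 were tested. In clones over resistant populations 1 rose and none fell, where 1.68% of all tested genes rose and 5.78% fell. The median log2 difference was -0.20, beside -0.08 over all tested genes. The gene that rose was CD63, the granule membrane tetraspanin whose surfacing marks basophil degranulation. It had 429, 409, 437 and 383 FPKM in Clones 3, 1, 2 and 4, against 174, 234 and 199 in the imatinib, nilotinib and GNF-2 populations. The vehicle population had 268. Clones and populations did not overlap (log2 difference 1.04, SE 0.13, limma adjusted p = 0.00797), and CD63 passed under 17 of 18 alternative settings. It missed the threshold with the population of origin as a block (1.14, SE 0.16, adjusted p = 0.07). SRGN, the serglycin core protein that packs histamine and proteases, had 115 (Clone 2) to 271 FPKM (Clone 3) in the resistant libraries and 335 in vehicle. LTC4S, the leukotriene C4 synthase, had 157 FPKM in Clone 2, 30.7 in the vehicle population and at most 77.2 in the other resistant libraries.

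Surface receptors and transcription factors of these lineages gave no gene past the threshold in any of the 4 comparisons, with 10 of 24 and 22 of 25 tested. SIGLEC6, a siglec of mast cells, had 118 FPKM in vehicle, 82.9 in Clone 4 and at most 44.9 in the other resistant libraries. IL3RA, the alpha chain of the receptor for interleukin 3, had 6.43 to 17.4 FPKM in the resistant libraries and 21.2 in vehicle, but CSF2RB, the beta chain it signals through, had at most 0.324. GATA1, the erythroid, eosinophil and mast cell factor, had 8.55 FPKM in Clone 2 and at most 1.38 elsewhere. CEBPE, which acts late in granulocyte differentiation, had 0.936 in Clone 2, 7.48 in Clone 4, 23.5 to 95.0 in the other resistant libraries and 91.5 in vehicle. SPI1 (PU.1) was listed at 0 in Clones 3 and 4 and had 7.50 to 18.2 in the other resistant libraries, against 29.9 in vehicle. Of the 401 tested genes at 0 in at least 1 library, 297 had 5 FPKM or more in another. Whether the zeros of SPI1 reflect absent RNA was not tested. Of 12 erythroid markers, 11 were under 1 FPKM in all libraries. The 8 monocyte markers summed to 8.86 FPKM in Clone 2 and at most 75.7 (Clone 3), and the 10 lymphoid markers to between 150.1 (Clone 2) and 506 (Clone 3), most of it NKG7 and CD79A or CD79B.

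The tested genes were compared with one another across the 8 libraries. On log2(FPKM + 1), Pearson's r between HDC and FCER1G was 0.09 (Spearman's rho 0.02) and between HDC and TPSAB1 -0.18 (rho 0.05), given as descriptions with no test. Between HDC and PRG2 it was 0.60 (rho 0.65), with PRG2 listed at 0 in 6 of the 8. TPSAB1 and TPSB2 had r = 0.96 (rho 0.90) but may share reads. Among 10895 genes, those most like each gene by Pearson's r were then listed, 5 per gene. For HDC they were NAPB (0.99), DYNC1LI2, ARHGEF7, FAM193B and TPR (0.98), all lowest in Clone 3. For FCER1G they were PRF1, the perforin gene (r = 0.99, rho 0.93, 54.7 FPKM in Clone 2), SCN9A, LST1 (rho 1), CKM and PLEKHO1. For TPSAB1 they were COX7B (0.98), TPSB2, ZNF628, CDK11B and PIR, and for TPSB2 CDK11B (0.98), PIR, AEBP1, TPSAB1 and ADRM1. The last of these lists were set by 1 library: AEBP1 had 329 FPKM in Clone 4 and at most 132 elsewhere. For PRG2 they were ZNF586, ANAPC10, DNM2, MTFP1 and ING1. All these values share the same 8 libraries, and 1 extreme library can set a correlation of this size.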

How the data were processed

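RNA of 8 KCL-22 libraries was prepared on RNeasy Plus Mini columns and made into libraries by Illumina protocols, per the labels' protocols. The deposited values are FPKM per gene, computed by the authors. TopHat 1.3, Cufflinks 1.3 and GRCh37 are named per the submitters' processing notes. The unit was read from the tool and from column sums of 497775.3 to 583520.5. Entries missing a value (70) were left out, and starts, counted from 0 in the table, are given counted from 1. Depth, 19900000 to 39400000 fragments, was estimated from the smallest FPKM steps of 523 intronless genes.

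With R 4.3.3 and limma 3.58.1 (lmFit, eBayes with trend), log2(FPKM + 1) was fitted with 1 mean per resistance group over the 8 libraries, or 1 mean per kind of sample, for 11843 genes with a mean of at least 1 FPKM; Benjamini-Hochberg adjusted p under 0.05, two-sided, was called. The vehicle population and Clone 4, alone in their groups, were assumed to vary like the other groups. The fit was tested on simulated data. Single libraries were compared by the 2-fold rule. All 10 genes were named; of other lists, genes past the threshold and up to 4 by size were eligible, and further genes were picked after their values were seen. The genes and lists were chosen with earlier results of these data known. Alternatives were other pseudocounts, filters, scalings, variance models, covariates, the population of origin as a block and leaving out libraries. Python 3.11.15, pandas 2.3.3, scipy 1.17.1 and matplotlib 3.10.9 were used.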

Additional observations from a re-analysis of the deposited data

Results flagged for a closer look

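The 4 genes above 0 in all libraries were checked among the 4 clones for a single clone far from the others, by the gap to its nearest neighbour over the whole range. All 4 were marked. The gaps were taken on FPKM, and the check was not run on the log2(FPKM + 1) scale of the tests. Chance marks about 1 in 20 such groups if their values are normally distributed, which was not tested. The genes also share the same clones, so the marks are descriptions.

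HDC was marked for Clone 2, at 314 FPKM, against 136 to 162 in the other clones. FCER1G was marked for Clone 2, at 323 FPKM, against 0.554 to 37.1 in the other clones. TPSAB1 was marked for Clone 4, at 48.1 FPKM, against 0.841 to 5.36 in the other clones. TPSB2 was marked for Clone 4, at 11.5 FPKM, against 0.208 to 1.07 in the other clones. TPSB2 entered the tests only through that clone and shares reads with TPSAB1, so its mark is not a separate result.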

How the results depend on the processing

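Of 319 alternative values of the tested genes, 300 kept their direction and their side of the threshold, 9 lost the call, 1 gained one and 9 turned in sign. All 9 losses were HDC in clones over resistant populations, whose difference stayed between -1.69 and -1.29 over 18 alternatives with adjusted p from 0.00207 to 0.203. It was lost with no filter on low values (-1.42, adjusted p = 0.0568), with resistance group as a covariate (-1.45, 0.112) and in 6 of 7 fits that left out 1 library. The number of the 5 genes called there was 0 with no filter, 0 with resistance group as a covariate and 0 to 1 when libraries were left out. In GNF-2 resistant over vehicle it was 0 to 1 when libraries were left out, 1 being PRG2 without the imatinib population (-5.91, adjusted p = 0.032), a difference against values listed at 0. The sign turned for HDC between inhibitor classes with clone or population as a covariate (-0.22) and without the nilotinib population (-0.09) or Clone 1 (-0.21; up to 0.87 with others left out), and for TPSB2 without Clone 3 (0.08) or Clone 1 (0.10; down to -0.29 with others left out). In clones over resistant populations TPSB2 turned to -0.27 and TPSAB1 to -0.73 with resistance group as a covariate, and TPSAB1 to -0.47 without Clone 4 (up to 1.10 with others left out). FCER1G between the classes stayed between -4.91 and -2.46 (adjusted p from 0.272 to 1). The causes of these changes were not tested, beyond the fewer samples of each left-out fit.

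For the 10 other genes followed in clones over resistant populations, 179 alternative values gave 102 with the same call, 76 that lost it, 1 that gained it (HNMT with a pseudocount of 5) and 0 reversed. By the 2-fold rule, 33 of 36 counts stayed the same. With a pseudocount of 5 the count was 1 for the imatinib population over vehicle and 1 for the nilotinib population over vehicle, and with at least 1 FPKM in the higher library it was 2 for Clone 2 over the GNF-2 population. No value was given by PRG2 where all libraries compared were at 0 or only genes above 0 throughout were kept, by TPSB2 without Clone 4, or by genes under a required mean of 5 FPKM. 

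The labels name the population each clone was taken from, Clone 3 with the imatinib population and Clones 1, 2 and 4 with the GNF-2 population, so a paired fit for clones over resistant populations took the population of origin as a replicate block, with the nilotinib population in a block of its own. It was chosen after seeing the data and leaves fewer residual degrees of freedom. In that fit 0 of the 5 genes and 13 of 11843 were called, against 1 and 883 without the block, and 1925 genes had an unadjusted p under 0.05 with it. HDC was at -1.41 (adjusted p = 0.203), TPSAB1 turned to -0.0094, and the other genes tested kept their direction and side. Of the 10 other genes followed, the 9 called without the block lost the call. The sample numbers pair nothing in the other comparisons, because the treated populations carry 1 shared number and the clone numbers are names.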
